A study of Mus musculus with 12 samples.

Results

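Cell cycle genes were followed in gonadal white adipose tissue of mice that lack HOIP in fat cells. They were 37 genes, chosen by name as known genes of DNA replication and cell division and found by symbol among the 55281 genes of the deposited count table. HOIP, encoded by Hoip (Rnf31), is the catalytic subunit of the linear ubiquitin chain assembly complex. HoipA-KO mice carried Hoip fl/fl with AdipoQ.Cre+, a Cre recombinase under the adiponectin promoter that acts in mature adipocytes, and WT controls were Hoip fl/fl AdipoQ.Cre-, so that the floxed allele was shared by all animals and Cre was not. Male mice were placed at 6 weeks of age on a control diet (CD, 14% fat) or a high fat diet (HFD, 60% fat) and were sampled after 16 weeks, at 22 to 24 weeks of age. Each of the 12 poly(A) RNA libraries (3 per genotype and diet) was made from fat pooled from 3 mice, which the labels explain by the tissue mass that extraction from HoipA-KO required, and the labels do not say whether pools shared litters or preparation, so that p-values measure the spread between these pools. Library totals lay between 30513500 and 60540260 estimated counts. Values below are CPM, counts scaled to a common library size and corrected by the trimmed mean of M values (TMM), so that 3 counts, taken as the floor of detection for counting error only, correspond to 0.0532 to 0.0983 CPM.

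A dividing cell copies its DNA in S phase and separates the copies in mitosis, and the genes for each step are switched on in turn. E2F factors raise the replication genes at the G1/S boundary, and the MuvB complex with B-Myb and FOXM1 raises the mitotic genes later, many through a promoter element named the cell cycle homology region (CHR) that often lies near CCAAT boxes. Mature adipocytes are post-mitotic cells, whereas macrophages, progenitors and other stromal cells of fat can divide. In whole tissue a larger number of dividing cells and more of a transcript per dividing cell cannot be told apart.

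The 37 genes fell into 7 roles. The replication fork and nucleotide supply held Mcm2, Mcm3, Mcm4, Mcm5, Mcm6 and Mcm7 (the replicative helicase), Pcna (the polymerase clamp), Rrm2 (ribonucleotide reductase) and Tk1 (thymidine kinase). G1/S control held E2f1, the cyclin E genes Ccne1 and Ccne2, and the checkpoint kinase Chek1. The mitotic regulators were Cdk1, Ccna2, Ccnb1, Ccnb2, Aurka, Aurkb, Plk1 and Foxm1. The kinetochore, spindle checkpoint and passenger complex was represented by Bub1, Bub1b, Cenpe, Cenpf, Birc5 and Cdca8. Spindle and cytokinesis genes were Kif11, Kif20a, Kif23, Prc1, Tpx2 and Nusap1. Cdc20 (a coactivator) and Ube2c (a ubiquitin-conjugating enzyme) work with the anaphase-promoting complex, and Mki67 (the Ki-67 antigen) and Top2a (topoisomerase II alpha) act on chromosome structure. In GRCm38 (GENCODE M21), Mki67 spans chr7:135689784-135716361 and Top2a chr11:98992943-99024189, Cdk1 lies at chr10:69335146-69352938, Pcna at chr2:132249162-132253314 and Bub1 at chr2:127801122-127831865, all on the minus strand, and values were summed over each gene's transcripts.

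Promoter sequence from RefSeq (GRCm38.p6, 250 bases before to 50 after the start) was matched by symbol for 30 of the 37 genes; Mcm4, Ccne2, Ccna2, Aurkb, Foxm1, Kif20a and Tpx2 were not matched. Stretches upstream of the start are shown for 5 mitotic genes and 2 helicase genes, as examples of the motifs counted after them. Capitals mark CHR letters (TTTGAA or TTCGAA), E2F letters (TTTCCCGC, TTTGGCGC or TTTCGCGC) and CCAAT boxes, each searched on both strands, so that TTCAAA, GCGCCAAA and ATTGG are their reverse complements. Overlapping matches were all kept, and in Mcm5 and Mcm6 E2F letters of both strands overlap each other.
Cdk1: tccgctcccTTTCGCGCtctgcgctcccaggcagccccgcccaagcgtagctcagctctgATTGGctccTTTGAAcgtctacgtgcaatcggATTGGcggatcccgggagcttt
Cdc20: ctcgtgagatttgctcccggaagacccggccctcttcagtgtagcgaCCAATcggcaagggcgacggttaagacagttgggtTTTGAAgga
Mki67: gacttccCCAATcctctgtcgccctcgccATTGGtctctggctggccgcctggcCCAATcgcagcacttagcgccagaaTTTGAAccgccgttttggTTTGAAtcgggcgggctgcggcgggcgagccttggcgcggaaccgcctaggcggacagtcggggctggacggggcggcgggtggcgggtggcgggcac
Top2a: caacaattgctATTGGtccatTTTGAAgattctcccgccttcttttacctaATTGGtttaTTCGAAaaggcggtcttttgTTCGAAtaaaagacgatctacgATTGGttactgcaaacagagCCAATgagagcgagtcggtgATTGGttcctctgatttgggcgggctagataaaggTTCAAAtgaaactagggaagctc
Kif11: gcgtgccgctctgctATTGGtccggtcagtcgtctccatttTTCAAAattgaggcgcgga
Mcm5: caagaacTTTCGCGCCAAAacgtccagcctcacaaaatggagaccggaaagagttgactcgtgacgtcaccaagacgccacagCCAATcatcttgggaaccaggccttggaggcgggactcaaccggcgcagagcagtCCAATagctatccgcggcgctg
Mcm6: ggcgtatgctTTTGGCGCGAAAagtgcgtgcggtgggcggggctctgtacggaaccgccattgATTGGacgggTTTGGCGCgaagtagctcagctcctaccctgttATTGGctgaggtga
The Cdk1 stretch is chr10:69352939-69353052 on the minus strand, and that of Cdc20 is chr4:118437353-118437443 on the minus strand. Both were cut at the annotated gene, 26 and 9 bases before the RefSeq start, so that CHR letters of Cdk1 and a CCAAT box of Cdc20 counted in the removed bases are not shown. That of Mki67 is chr7:135716380-135716574 on the minus strand and that of Top2a chr11:99024190-99024389 on the minus strand. Kif11 is shown at chr19:37376322-37376381 on the plus strand, Mcm5 at chr8:75109349-75109508 on the plus strand and Mcm6 at chr1:128359706-128359825 on the minus strand.

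Letters were counted in 1 promoter per gene, the first listed for Mcm7 and Prc1, which had 2 entries each. CHR letters were present in 17 of the 30 promoters (56.7%), against 19.4% of 27025 RefSeq genes counted in the same way and 19.2% of all 32851 RefSeq promoters of the same length. E2F letters were found in 5 of 30 (16.7%, against 1.91% of all genes) and CCAAT in 24 of 30 (80.0%, against 37.9%). All 17 promoters with CHR letters also held CCAAT, a combination present in 7.7% of all genes. Of the mitotic regulators 4 of 5 matched promoters had CHR letters, as had 4 of 6 in the kinetochore group, 3 of 4 in the spindle group, and both promoters in each of the anaphase and chromosome groups. Replication genes had CHR letters in 2 of 8 (Mcm2 and Mcm7) and E2F letters in 4 of 8 (Mcm3, Mcm5, Mcm6 and Mcm7). None of the 3 matched G1/S promoters held any of the motifs in this window. A match describes letters in the sequence and was not tested against binding.

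Some libraries stood apart from their group in genes other than the 37 cell cycle genes. WT CD replicate 3 had a summed level of 9996.9 CPM over 16 genes of spermatogenic cells, against 25.5 and 332 CPM in WT CD replicates 1 and 2 and between 4.76 and 83.9 CPM in the other 9 libraries. Germ cells of the testis divide. This library was read apart, and the tests below used 11 libraries with 2 in the WT CD group. Fits that leave out WT CD replicate 1 or 2 as well hold only 1 WT CD library, and the other groups supply their spread. WT CD replicate 2 had 15378 CPM over 9 genes of the epididymal epithelium, nearly all from Crisp1, and HoipA-KO HFD replicate 1 had 1279 CPM. Adipocyte markers, which define the labelled tissue, were detected in every library, with Adipoq between 205 and 3452 CPM.

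Whole-gene counts of the deleted gene overlapped between the genotypes. Rnf31 was measured at 20.2, 20.6 and 12.6 CPM in WT on CD, 18.2, 17.8 and 19.7 CPM in WT on HFD, 17.9, 18.3 and 21.6 CPM in the knockout on CD, and 19.6, 19.0 and 22.5 CPM in the knockout on HFD. The knockout differed from WT by -0.08 ± 0.14 (log2 fold change, SE) on CD and 0.13 ± 0.12 on HFD (edgeR quasi-likelihood test, Benjamini-Hochberg adjusted p = 0.654 and 0.491). Counts per gene do not separate the floxed exons from the rest, and other cells of the tissue keep the gene, so this value checks no genotype label.

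In the CD groups, the cell cycle genes were far more abundant in HoipA-KO than in WT CD replicates 1 and 2. Summed over the 37 genes, WT CD replicates 1 and 2 reached 212 and 218 CPM, and the HoipA-KO CD libraries 943, 1487 and 995 CPM. WT CD replicate 3, left out of the tests, reached 1348 CPM, within the range of the HoipA-KO CD libraries. All 37 genes passed the filter on low counts, and 35 rose in HoipA-KO (edgeR quasi-likelihood test, Benjamini-Hochberg adjusted p under 0.05), where 18.9% of all 18427 genes tested rose and 18.8% fell. The median log2 fold change of the 37 was 2.83 (range 0.76 to 4.28), beside -0.055 over all genes tested. The HoipA-KO CD and the used WT CD libraries did not overlap for 36 of the 37 genes, where 28.3% of all genes were higher without overlap. Against all 3 WT CD libraries, every HoipA-KO CD library was higher for 15 of the 37. With all 12 libraries in the fit, 13 of the 37 rose and the median was 0.76.

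**Figure D1:**
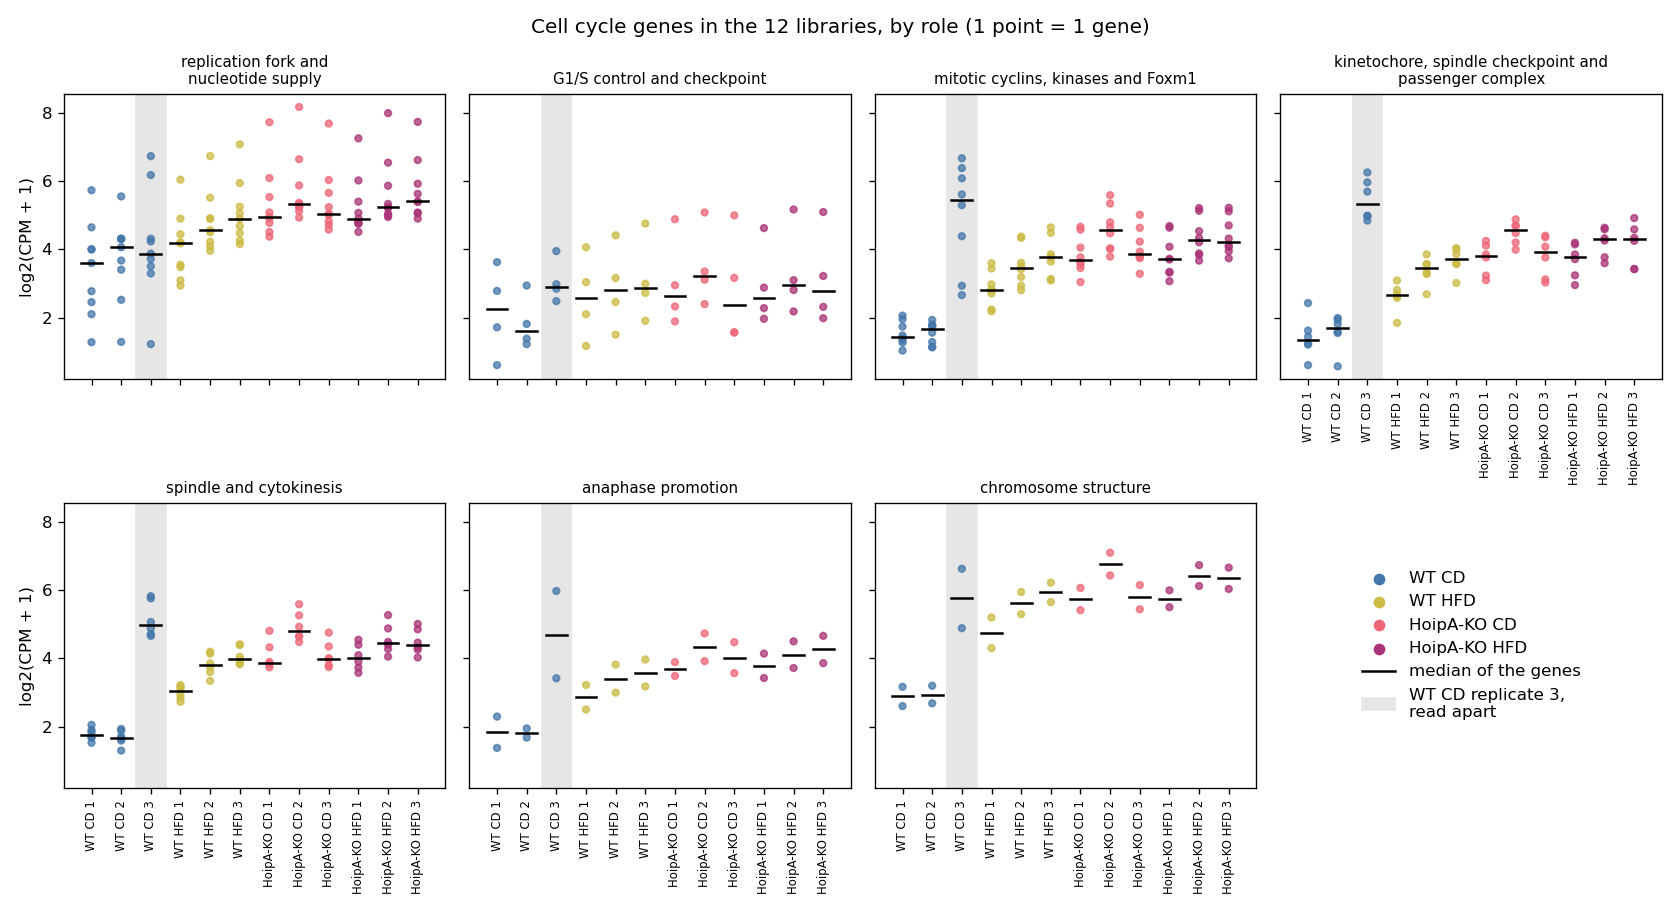
Each panel is a role, the vertical axis is log2(CPM + 1) and each point is 1 gene in 1 of the 12 libraries, with the median of the genes as a black bar and WT CD replicate 3 shaded. By the medians, both unshaded WT CD libraries sit lowest in the mitotic, kinetochore, spindle, anaphase and chromosome panels, and WT CD replicate 3 lies above the knockout libraries in the mitotic, kinetochore and spindle panels but not in the replication panel.

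Mki67 and Top2a are widely used markers of proliferating cells. Mki67 was at 7.96 and 8.15 CPM in WT CD replicates 1 and 2 (28.5 CPM in replicate 3), 35.6, 60.3 and 73.2 CPM in WT on HFD, 65.7, 135 and 69.7 CPM in the knockout on CD, and 62.5, 105 and 99.6 CPM in the knockout on HFD. Top2a was at 5.06 and 5.41 CPM in WT CD replicates 1 and 2 (97.3 CPM in replicate 3), 18.6, 38.1 and 48.9 CPM in WT on HFD, 41.4, 84.9 and 42.2 CPM in the knockout on CD, and 44.1, 68.3 and 64.3 CPM in the knockout on HFD. In both genes every HoipA-KO CD library lay above both used WT CD libraries, HoipA-KO CD replicate 2 was the highest of the 11 used libraries, and the WT HFD libraries overlapped with the knockout groups. On CD, Mki67 was 11.2-fold higher in HoipA-KO, a log2 fold change of 3.48 ± 0.45 (SE, n = 3 against 2; edgeR quasi-likelihood test, Benjamini-Hochberg adjusted p = 0.000627). The same comparison gave 3.42 ± 0.49 for Top2a (edgeR quasi-likelihood test, Benjamini-Hochberg adjusted p = 0.000945). WT CD replicate 3 was left out of these fits; it lay below the knockout libraries in Mki67 and above them in Top2a.

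All 8 mitotic cyclins and kinases with Foxm1 rose on CD, with a median log2 fold change of 3.44 (range 2.36 to 3.54). Cdk1, the kinase that drives entry into mitosis, was at 2.87 and 2.47 CPM in WT CD replicates 1 and 2 (19.8 CPM in replicate 3), 11.04, 19.2 and 21.3 CPM in WT on HFD, 22.8, 39.5 and 31.2 CPM in the knockout on CD, and 24.6, 34.0 and 36.1 CPM in the knockout on HFD. Ccna2, the cyclin A of S phase and G2, was at 3.16 and 2.34 CPM in WT CD replicates 1 and 2 (5.31 CPM in replicate 3), 9.83, 19.7 and 23.9 CPM in WT on HFD, 24.2, 46.9 and 23.7 CPM in the knockout on CD, and 23.8, 35.9 and 33.5 CPM in the knockout on HFD. All WT HFD libraries were above all used WT CD libraries in both genes, with WT HFD replicate 1 the lowest of its group. Cdk1 changed by 3.54 ± 0.36 on the log2 scale (SE; edgeR quasi-likelihood test, Benjamini-Hochberg adjusted p = 0.000452) and Ccna2 by 3.52 ± 0.48. Plk1, a kinase of centrosome and spindle assembly, rose 11.2-fold, and Ccnb1, the B-type cyclin partner of Cdk1, rose 11.4-fold. Aurka, the centrosomal Aurora kinase, had the smallest difference of the group at 5.14-fold, followed by Foxm1, the transcription factor of late cell cycle genes, at 6.21-fold.

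All 6 genes of the kinetochore, checkpoint and passenger group rose on CD (median 2.85, range 2.60 to 4.28), as did all 6 spindle and cytokinesis genes (median 3.17, range 2.63 to 3.67). Bub1b, which encodes the checkpoint protein BubR1, was at 4.37 and 2.83 CPM in WT CD replicates 1 and 2 (30.6 CPM in replicate 3), 7.47, 13.4 and 15.1 CPM in WT on HFD, 17.9, 28.3 and 19.4 CPM in the knockout on CD, and 17.2, 23.0 and 22.9 CPM in the knockout on HFD. Birc5, which encodes survivin of the chromosomal passenger complex, was at 1.31 and 1.99 CPM in WT CD replicates 1 and 2 (27.6 CPM in replicate 3), 6.00, 10.8 and 13.5 CPM in WT on HFD, 16.2, 24.7 and 20.0 CPM in the knockout on CD, and 16.7, 23.7 and 29.1 CPM in the knockout on HFD. The 3 HoipA-KO CD libraries exceeded both used WT CD libraries in each, and WT CD replicate 3 exceeded them. Bub1, the checkpoint kinase, was at 0.523 and 0.486 CPM in WT CD replicates 1 and 2 (50.5 CPM in replicate 3), 2.59, 5.42 and 7.07 CPM in WT on HFD, 7.54, 14.8 and 7.15 CPM in the knockout on CD, and 6.72, 11.04 and 9.67 CPM in the knockout on HFD. It was lowest in WT CD replicates 1 and 2 and by far highest in WT CD replicate 3. Over the 11 libraries it had the largest fitted difference of the 37 on CD, 19.4-fold, with a log2 fold change of 4.28 ± 0.55 (SE; edgeR quasi-likelihood test, Benjamini-Hochberg adjusted p = 0.000638), whereas the estimate with all 12 libraries was -0.84 and was not called.

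Tpx2, a spindle assembly factor that activates Aurora A, was at 2.54 and 2.68 CPM in WT CD replicates 1 and 2 (32.4 CPM in replicate 3), 8.29, 17.3 and 19.9 CPM in WT on HFD, 26.9, 46.9 and 25.9 CPM in the knockout on CD, and 22.3, 37.4 and 31.1 CPM in the knockout on HFD. Prc1, which bundles microtubules of the central spindle, was at 2.73 and 2.81 CPM in WT CD replicates 1 and 2 (52.9 CPM in replicate 3), 7.73, 16.5 and 20.2 CPM in WT on HFD, 19.0, 37.2 and 19.3 CPM in the knockout on CD, and 20.1, 28.3 and 27.8 CPM in the knockout on HFD. HoipA-KO CD replicate 2 was the highest of the 11 used libraries for both genes. Tpx2 had a log2 fold change of 3.67 ± 0.46 (SE; edgeR quasi-likelihood test, Benjamini-Hochberg adjusted p = 0.000574) and Prc1 of 3.18 ± 0.47. The motor genes Kif11, Kif20a and Kif23 rose 8.98-fold, 8.16-fold and 9.17-fold.

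Both genes that work with the anaphase-promoting complex rose on CD. Ube2c, its ubiquitin-conjugating enzyme, was at 3.90 and 2.85 CPM in WT CD replicates 1 and 2 (9.65 CPM in replicate 3), 8.29, 13.1 and 14.6 CPM in WT on HFD, 13.8, 25.5 and 21.2 CPM in the knockout on CD, and 16.6, 21.5 and 24.2 CPM in the knockout on HFD. Cdc20, the coactivator that starts anaphase, was at 1.59 and 2.20 CPM in WT CD replicates 1 and 2 (61.7 CPM in replicate 3), 4.65, 6.96 and 8.02 CPM in WT on HFD, 10.2, 14.1 and 10.8 CPM in the knockout on CD, and 9.71, 12.1 and 13.5 CPM in the knockout on HFD. Neither gene's HoipA-KO CD libraries overlapped with the used WT CD libraries. Their log2 fold changes on CD were 2.58 ± 0.35 and 2.62 ± 0.31 (SE).

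All 9 replication genes rose on CD, with a median log2 fold change of 2.18 that lay below that of the mitotic group, a difference that was not tested. The range was 0.76 (Mcm7) to 4.27 (Tk1). Pcna was at 52.0 and 45.7 CPM in WT CD replicates 1 and 2 (71.1 CPM in replicate 3), 64.7, 105 and 133 CPM in WT on HFD, 209.5, 286 and 204 CPM in the knockout on CD, and 151, 252 and 211 CPM in the knockout on HFD. Mcm6, a helicase subunit, was at 15.0 and 18.7 CPM in WT CD replicates 1 and 2 (17.7 CPM in replicate 3), 28.8, 44.5 and 60.4 CPM in WT on HFD, 66.8, 98.4 and 64.2 CPM in the knockout on CD, and 63.6, 91.8 and 96.7 CPM in the knockout on HFD. Pcna rose 4.77-fold on CD (edgeR quasi-likelihood test, Benjamini-Hochberg adjusted p = 0.00117) and Mcm6 4.54-fold. The subunits of the same helicase ring were spread widely, from 1.69-fold for Mcm7 and 1.82-fold for Mcm4 to 7.24-fold for Mcm5. Tk1, the salvage enzyme of thymidine, was near 1.43 CPM in both WT CD libraries and rose 19.3-fold. In Mcm2 and Rrm2 the WT CD libraries differed from each other, at 5.82 and 15.7 CPM for Mcm2 and 3.28 and 11.7 CPM for Rrm2.

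G1/S control had the lowest median log2 fold change of the 7 roles on CD, 1.45, and 2 of its 4 genes rose. E2f1, the activating E2F, was at 11.3 and 6.65 CPM in WT CD replicates 1 and 2 (6.86 CPM in replicate 3), 15.7, 20.2 and 25.9 CPM in WT on HFD, 28.4, 32.8 and 30.8 CPM in the knockout on CD, and 23.6, 34.8 and 33.0 CPM in the knockout on HFD. It rose 3.42-fold on CD. Chek1 rose 3.19-fold from WT CD libraries that differed from each other, at 0.523 and 1.33 CPM in replicates 1 and 2 (6.17 CPM in replicate 3). Ccne1 was at 5.87 and 2.51 CPM in WT CD replicates 1 and 2 (4.58 CPM in replicate 3), 7.21, 7.92 and 6.94 CPM in WT on HFD, 6.70, 9.18 and 7.94 CPM in the knockout on CD, and 6.34, 7.54 and 8.30 CPM in the knockout on HFD. Ccne2 was at 2.28 and 1.61 CPM in WT CD replicates 1 and 2 (14.4 CPM in replicate 3), 3.28, 4.48 and 5.61 CPM in WT on HFD, 4.01, 7.62 and 1.97 CPM in the knockout on CD, and 3.84, 5.99 and 3.97 CPM in the knockout on HFD. The cyclin E genes were the ones not called on CD, with log2 fold changes of 0.92 ± 0.33 for Ccne1 (SE; edgeR quasi-likelihood test, Benjamini-Hochberg adjusted p = 0.0511) and 1.22 ± 0.52 for Ccne2 (edgeR quasi-likelihood test, Benjamini-Hochberg adjusted p = 0.0916). In Ccne2 HoipA-KO CD replicate 3 fell between the WT CD libraries, while in Ccne1 the groups did not overlap.

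In WT mice, most of the cell cycle genes rose on HFD. The WT HFD libraries summed to 405, 681 and 838 CPM over the 37 genes, and 29 of the 37 rose relative to WT CD (edgeR, Benjamini-Hochberg adjusted p under 0.05), where 9.35% of all genes tested rose and 5.47% fell. The median log2 fold change was 2.15 (range 0.34 to 3.31), beside 0.004 over all genes, and 32 of the 37 were higher in each WT HFD library than in both used WT CD libraries, where 24.6% of all genes were. Every gene of the mitotic, kinetochore, spindle, anaphase and chromosome groups rose. Of the 9 replication genes 4 rose (Mcm3, Mcm5, Mcm6 and Tk1), and of the 4 G1/S genes only E2f1 rose. WT HFD replicate 1 was the lowest of its group in 36 of the 37 genes and replicate 3 the highest in 36. The comparison shares its 2 WT CD libraries with the genotype comparison on CD. With all 12 libraries, 6 of the 37 rose and the median was 0.03, without WT CD replicate 2 the count was 15, and a fit of the 2 groups alone called none of the 37 and no gene at all.

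Mki67 rose by 2.81 ± 0.43 on the log2 scale in WT mice on HFD (SE, n = 3 against 2; edgeR quasi-likelihood test, Benjamini-Hochberg adjusted p = 0.00658) and Top2a by 2.75 ± 0.47. Cdk1 rose 6.43-fold, Ccna2 6.48-fold and Bub1 9.95-fold. The differences of Mcm4 and Mcm7 were 0.35 ± 0.22 and 0.34 ± 0.23 and were not called, and Pcna missed the threshold at 1.05 ± 0.32 (edgeR quasi-likelihood test, Benjamini-Hochberg adjusted p = 0.0561). Among the mitotic regulators Ccnb1 had the largest log2 fold change, 2.74, and Aurka the smallest, 1.68.

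On HFD the genotype differences were estimated as smaller, and fewer passed the test. HoipA-KO HFD libraries summed to 870.3, 1279 and 1254 CPM. The estimates were above 0 for all 37 genes, with a median log2 fold change of 0.79 (range 0.01 to 1.36) beside 0.058 over all genes, and 5 rose (edgeR, Benjamini-Hochberg adjusted p under 0.05), where 4.20% of all genes tested rose and 7.62% fell. At an unadjusted p under 0.05 the number was 21 of 37, beside 5812 of the 18427 genes tested in either direction. The genotypes did not overlap for 21 of the 37 genes, where 20.7% of all genes were higher in HoipA-KO without overlap. The genes called were Mcm3, Pcna, Tk1, Plk1 and Birc5. Tk1 rose 2.57-fold (edgeR quasi-likelihood test, Benjamini-Hochberg adjusted p = 0.0283), Birc5 2.29-fold and Plk1 2.14-fold.

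Mki67 had a log2 fold change of 0.66 ± 0.34 on HFD (SE; edgeR quasi-likelihood test, Benjamini-Hochberg adjusted p = 0.216), with HoipA-KO HFD replicate 1 inside the WT HFD range. Ccne1 and Ccne2 were at 0.01 ± 0.29 and 0.04 ± 0.45. The count of 5 depended on single libraries: it was 0 without WT HFD replicate 1, WT HFD replicate 2, HoipA-KO HFD replicate 2 or HoipA-KO HFD replicate 3, between 1 and 2 when each HoipA-KO CD library was left out in turn, 8 and 9 without WT CD replicates 1 and 2, and 11 without WT HFD replicate 3. DESeq2 called 15.

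Within HoipA-KO, the libraries of both diets overlapped in these genes. The estimates for HFD against CD in HoipA-KO lay between -0.19 (Pcna) and 0.24 (Tk1) on the log2 scale with a median of 0.00. None of the 37 genes was called by edgeR (Benjamini-Hochberg adjusted p under 0.05), none had an unadjusted p under 0.05, and none was called by DESeq2. Of all genes tested edgeR called 0%, with 415 at an unadjusted p under 0.05, and DESeq2 called 26 genes higher and 5 lower. The 95% intervals of the 37 genes reached down to -1.0 and up to 1.11, with median bounds of -0.71 and 0.74, so that differences of this size were not excluded. Mki67 was at -0.02 (95% interval -0.78 to 0.74) and Top2a at 0.07 (-0.77 to 0.90). HoipA-KO CD replicate 2 was the highest of its group in 36 of the 37 genes, and HoipA-KO HFD replicate 1 the lowest of its group in all 37. No gene of the 37 was higher in all HoipA-KO HFD than in all HoipA-KO CD libraries, where 3.39% of all genes were, and none was lower in all of them, where 2.48% were.

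**Figure D2:**
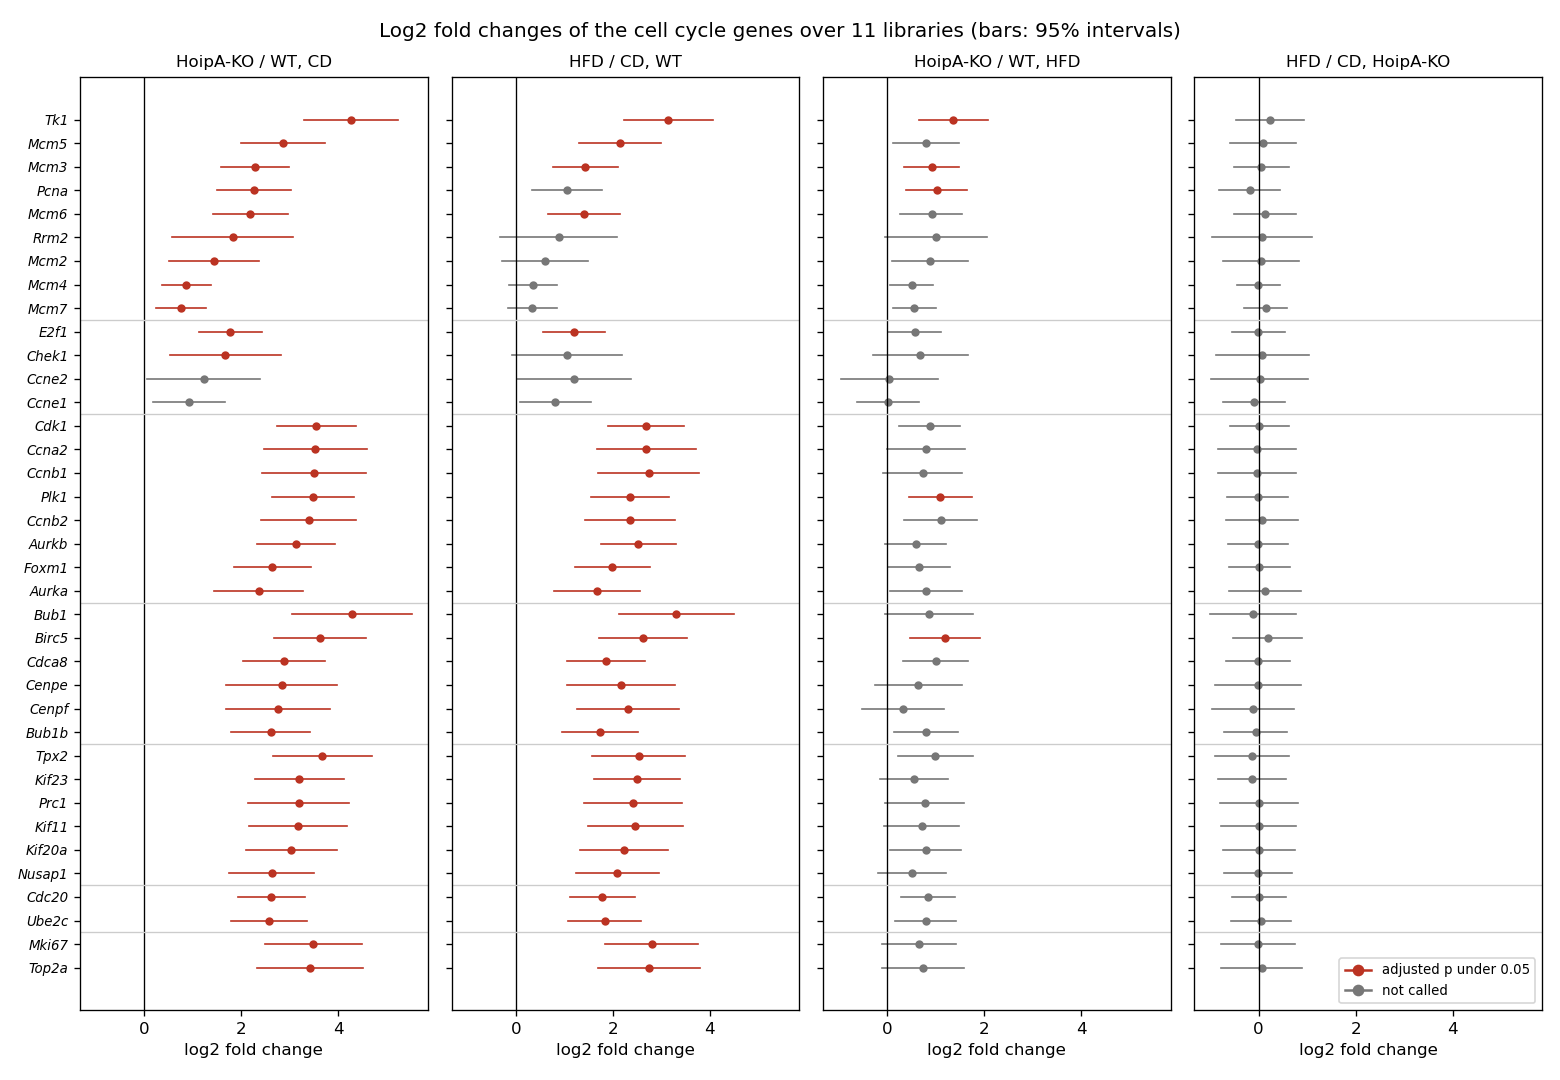
Log2 fold changes (points) with 95% intervals (bars) for the 37 genes in 4 comparisons over 11 libraries, ordered within each role by the difference on CD, with genes called at an adjusted p under 0.05 in red. In the panel of genotype on CD 35 genes are red, in that of diet in WT 29, in that of genotype on HFD 5, and in that of diet in HoipA-KO none, where the points lie between -0.19 and 0.24.

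The difference between the genotype effects on both diets was tested as an interaction term. It was negative for all 37 genes, a smaller knockout effect on HFD than on CD, with a median of -2.11 (range -3.42 to -0.20) beside -0.011 over all genes. It was called for 20 of the 37 (edgeR, Benjamini-Hochberg adjusted p under 0.05), where 3.58% of all genes were called lower and 0.331% higher. The called genes were 7 of 8 mitotic regulators (all but Aurka), all 6 spindle genes, Mki67, Top2a, Cdc20, Bub1, Birc5, Mcm5 and Tk1. Mki67 had an interaction of -2.83 ± 0.53 (SE; edgeR quasi-likelihood test, Benjamini-Hochberg adjusted p = 0.0284) and Bub1 of -3.42 ± 0.64. The least negative estimates were those of Mcm7 (-0.20) and Mcm4 (-0.36). The count of 20 depended on single libraries: it was 0 without WT CD replicate 2, WT HFD replicate 2, any of the HoipA-KO CD libraries, HoipA-KO HFD replicate 1 or HoipA-KO HFD replicate 3, 3 without WT HFD replicate 3, 10 without HoipA-KO HFD replicate 2, 24 without WT CD replicate 1 and 27 without WT HFD replicate 1. The median stayed between -2.36 and -1.68 in these fits, and with all 12 libraries it was -0.03.

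WT CD replicate 3 showed where the CD contrast rests on the choice of libraries. Its CPM was a median of 8.51 times the mean of replicates 1 and 2 over the 37 genes (range 0.722 to 100.1), and above 4 times in 24 of them. The gap was not even: the median ratio was 1.38 for the replication genes, 31.3 for the mitotic regulators, 21.5 for the kinetochore group and 13.4 for the spindle group. Foxm1 stood at 100.4 CPM in this library against 2.33 and 2.81 CPM in the other WT CD libraries, and Ccnb2 at 82.1 against 1.40 and 2.39 CPM. Pcna was at 71.1 CPM, Mcm6 at 17.7 CPM and Tk1 at 1.33 CPM in this library, against 52.0 and 45.7 CPM (Pcna), 15.0 and 18.7 CPM (Mcm6) and 1.43 and 1.44 CPM (Tk1) in the others.

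For 19 of the 37 genes WT CD replicate 3 was above every other library, knockouts included. For 15 genes, among them 8 of the 9 replication genes, every HoipA-KO CD library was above all 3 WT CD libraries. In the same library the germ cell cyclin Ccna1 was at 63.7 CPM and the meiotic Aurora kinase Aurkc at 11.4 CPM, while in the HoipA-KO libraries both lay at or below 0.0355 CPM, under the floor. Its macrophage genes summed to 298 CPM. In WT CD replicate 2, with 332 CPM of spermatogenic genes, the 37 genes summed to 218 CPM, close to the 212 CPM of replicate 1.

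**Figure D3:**
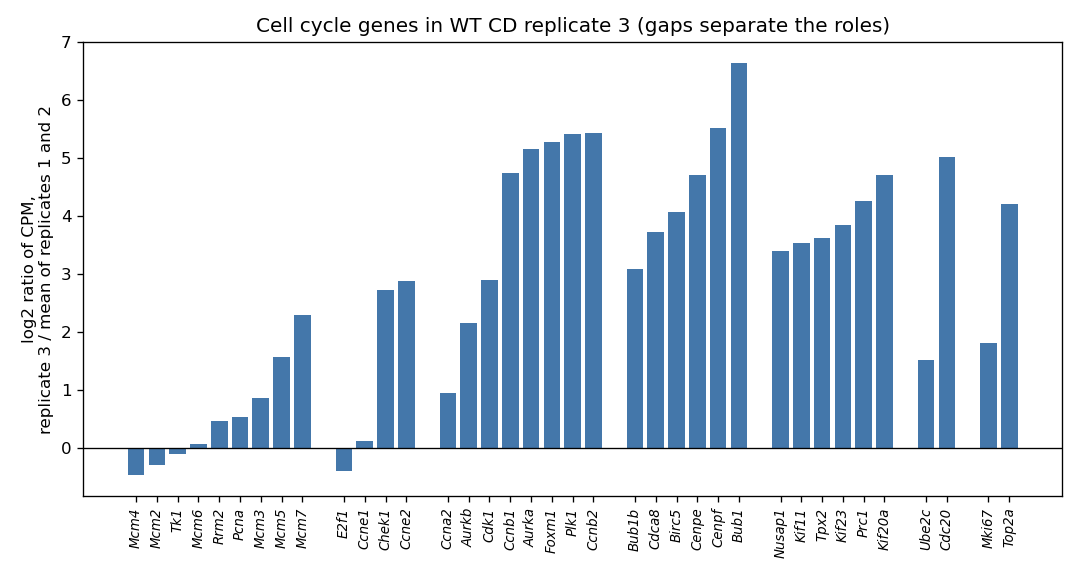
Bars give the log2 ratio of CPM in WT CD replicate 3 to the mean of WT CD replicates 1 and 2 for each of the 37 genes, grouped by role from replication (left) to chromosome structure (right). Bars of most replication genes lie near 0 (median ratio 1.38), those of the mitotic and kinetochore genes reach above 4 with medians of 31.3-fold and 21.5-fold, and Bub1 is the highest.

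Genes around the 37 in the same pathway, 121 in 7 lists, were unevenly affected on CD. There 18.9% of all genes rose and 18.8% fell. Of 25 other kinetochore, condensin and checkpoint genes 21 rose and 0 fell, and of 18 other spindle and cytokinesis genes 16 rose and 0 fell (edgeR, Benjamini-Hochberg adjusted p under 0.05). Bub3, a checkpoint protein and the most abundant of the first list to rise, rose 1.41-fold, and Racgap1, a partner of Kif23 in cytokinesis, 5.65-fold. Of 19 genes of origin licensing and firing 8 rose, with Cdt1, which loads the helicase, at 10.6-fold, and the median log2 fold change of that list was 0.22. Of 23 genes for DNA polymerases, clamp loaders and nucleotide enzymes 12 rose, with Rrm1, the large subunit of ribonucleotide reductase, at 2.01-fold. On HFD the genotypes differed in 1 of the 25, 0 of the 18 (6 at an unadjusted p under 0.05), 2 of the 19 and 5 of the 23, all higher in HoipA-KO, where 4.20% of all genes rose and 5812 of 18427 had an unadjusted p under 0.05.

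Of 9 G1 cyclins and CDKs 5 rose on CD and 1 fell, beside 18.9% and 18.8% of all genes. Ccnd1, the cyclin D1 gene, was at 28.8 and 41.3 CPM in WT CD replicates 1 and 2 (24.6 CPM in replicate 3), 48.0, 67.0 and 107 CPM in WT on HFD, 79.1, 111 and 82.4 CPM in the knockout on CD, and 147, 123 and 133 CPM in the knockout on HFD. Its log2 fold change on CD was 1.37 ± 0.32 (SE; edgeR quasi-likelihood test, Benjamini-Hochberg adjusted p = 0.00969). Cdk4 and Cdk6, the kinases that cyclin D binds, rose 1.92-fold and 3.47-fold. Ccnd2, the cyclin D2 gene, was at 232 and 207 CPM in WT CD replicates 1 and 2 (104 CPM in replicate 3), 333, 319.6 and 289 CPM in WT on HFD, 136, 154 and 124 CPM in the knockout on CD, and 150.3, 127 and 134 CPM in the knockout on HFD. In the fits over 11 libraries it fell in HoipA-KO on both diets, by 0.68 ± 0.15 on CD and 1.20 ± 0.14 on HFD on the log2 scale. Its WT HFD libraries were the highest of all, and WT CD replicate 3 lay below every knockout library. Ccnd3 was at -0.70 ± 0.25 on CD and was not called (edgeR quasi-likelihood test, Benjamini-Hochberg adjusted p = 0.0504).

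Of 9 CDK inhibitors and other brakes 3 rose and 1 fell on CD, beside 18.9% and 18.8% of all genes, so that nothing particular to the list was read from these counts. Cdkn1a, which encodes p21, was at 62.0 and 50.1 CPM in WT CD replicates 1 and 2 (38.8 CPM in replicate 3), 136, 134 and 159 CPM in WT on HFD, 109, 135 and 131 CPM in the knockout on CD, and 108, 121 and 155 CPM in the knockout on HFD. It rose 2.23-fold with genotype on CD and 2.56-fold with diet in WT, and its difference between genotypes on HFD was -0.17 ± 0.17 (edgeR quasi-likelihood test, Benjamini-Hochberg adjusted p = 0.526). Cdkn2a, the locus of p16 and ARF, was low (0.451 and 0.486 CPM in WT CD replicates 1 and 2, 2.63 CPM in replicate 3) and rose 4.92-fold on CD. Cdkn2c, which encodes p18, was at 254 and 130.0 CPM in WT CD replicates 1 and 2 (149 CPM in replicate 3), 104, 114 and 75.9 CPM in WT on HFD, 51.6, 52.2 and 72.2 CPM in the knockout on CD, and 48.6, 49.0 and 54.0 CPM in the knockout on HFD. With genotype it fell by 1.71 ± 0.28 (CD) and 0.95 ± 0.26 (HFD) in log2 fold change. Cdkn1b, which encodes p27, was at -0.01 on CD and was not called.

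Among 18 pocket proteins, E2F factors and MuvB subunits 7 rose and 2 fell on CD, beside 18.9% and 18.8% of all genes. Mybl2, which encodes B-Myb, rose 6.67-fold from 0.546 and 1.18 CPM in WT CD replicates 1 and 2 (9.67 CPM in replicate 3). E2f4, the most abundant of the list to rise, rose 1.34-fold. Lin52, a MuvB subunit, fell by 1.34 ± 0.20 on the log2 scale and Tfdp2, a partner of E2F proteins, by 0.74 ± 0.25. On HFD 1 gene of this list rose with genotype and 2 fell, where 4.20% of all genes rose and 7.62% fell. Their log2 fold changes were 0.49 for E2f4, -1.02 for Rb1 and -0.79 for Lin52. With diet in WT mice, 19 of 25 kinetochore, 15 of 18 spindle, 5 of 19 licensing, 3 of 23 polymerase and nucleotide, 1 of 9 G1, 2 of 9 inhibitor and 2 of 18 pocket protein genes rose, where 9.35% of all genes did. In the same comparison 1 inhibitor gene (Cdkn2c, -0.97), 1 pocket protein list gene (Lin52, -0.71) and 1 polymerase list gene (Rpa3, -0.77) fell (log2 fold changes). Of all genes 5.47% fell with diet in WT.

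Most markers of macrophages and mast cells moved with the cell cycle genes, and the part of any cell type in the result was not tested. The 9 macrophage genes summed to 487 and 341 CPM in WT CD replicates 1 and 2, 1108, 2091 and 3330.1 CPM in WT on HFD, 4433, 4827 and 5019 CPM in the knockout on CD and 4014, 5618 and 5586 CPM in the knockout on HFD. Of the 9, 8 rose with genotype on CD, 5 with genotype on HFD and 8 with diet in WT, beside 18.9%, 4.20% and 9.35% of all genes, and no gene of the list was at 0 in any library. Cd68, the most abundant, was at 23.5 and 20.3 CPM in WT CD replicates 1 and 2 (13.9 CPM in replicate 3), 145, 328 and 593 CPM in WT on HFD, 1112, 1374 and 1318 CPM in the knockout on CD, and 694, 1405 and 1061 CPM in the knockout on HFD. The macrophage sum and the cell cycle sum were both lowest in the used WT CD libraries, and within WT HFD replicate 1 was lowest and replicate 3 highest in both. The libraries of HoipA-KO HFD also had the same order in both sums. In the CD groups the orders differed: in HoipA-KO CD the macrophage sum was highest in replicate 3 and the cell cycle sum in replicate 2, and of WT CD replicates 1 and 2 the first had the higher macrophage sum and the lower cell cycle sum. The 8 genes of lipid-associated macrophages, led by Gpnmb, summed to 296 and 279.8 CPM in WT CD replicates 1 and 2, 1378, 3106 and 6283 CPM in WT on HFD, 17232, 23378 and 16655 CPM in the knockout on CD and 8047, 21025 and 9350.5 CPM in the knockout on HFD, and all 8 rose on CD. In HoipA-KO CD this sum was highest in replicate 2, as was the cell cycle sum, while replicates 1 and 3 stood in the opposite order. The 5 mast cell genes, led by Tpsb2, ran from 19.7 to 814 CPM, and 4 rose on CD.

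**Figure D4:**
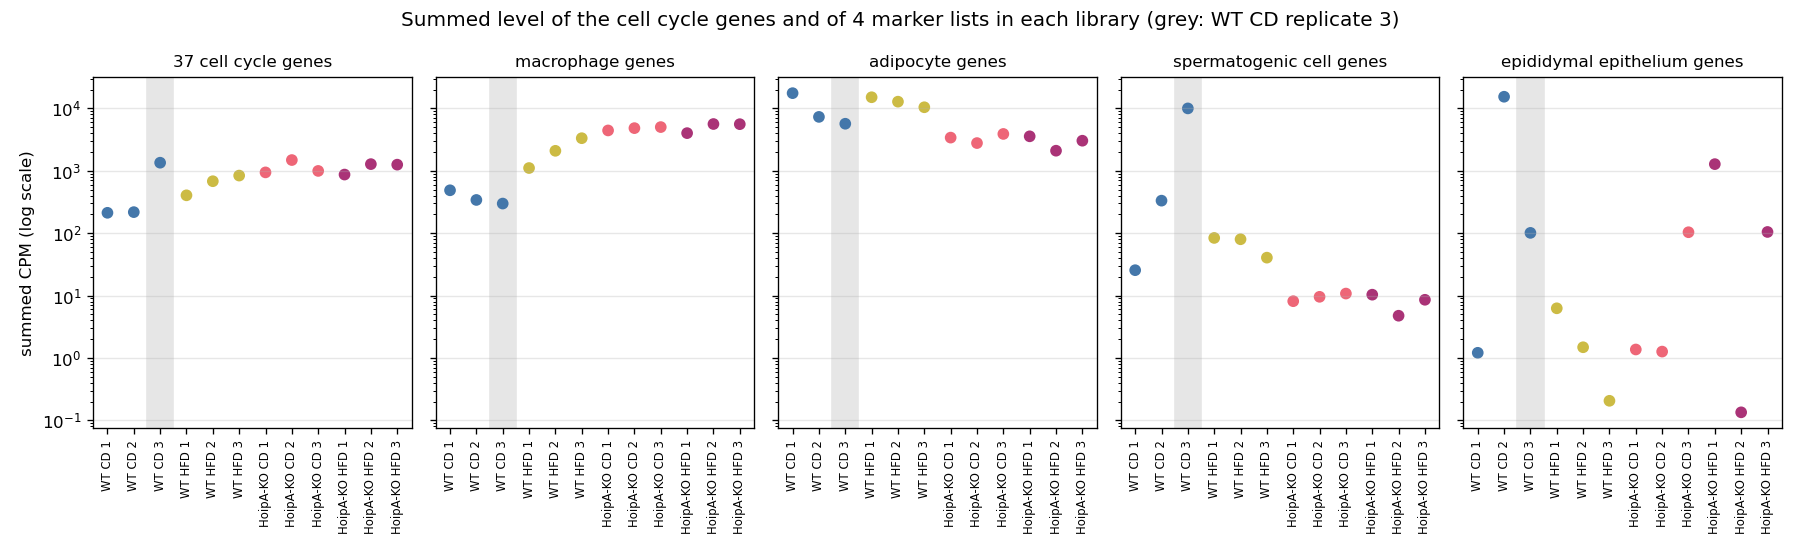
Summed CPM on a log axis for the 37 cell cycle genes and 4 marker lists in each of the 12 libraries, with WT CD replicate 3 shaded. The cell cycle panel is lowest in WT CD replicates 1 and 2 (212 and 218 CPM), the macrophage panel is lowest in the 3 WT CD libraries, and in the shaded library the cell cycle sum is 1348 CPM, the macrophage sum is 298 CPM and the spermatogenic sum is 9996.9 CPM.

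The 7 adipocyte genes, led by Lep, summed to 17546 and 7308 CPM in WT CD replicates 1 and 2, 15089.6, 12815 and 10428 CPM in WT on HFD, 3403, 2782 and 3895 CPM in the knockout on CD and 3568, 2099 and 3035 CPM in the knockout on HFD. Of these 6 fell with genotype on CD and 7 on HFD, beside 18.8% and 7.62% of all genes, and none was called with diet in WT. The 6 genes of adipose progenitors, led by Dcn, ran from 726 to 2486 CPM in the 11 used libraries (693 CPM in WT CD replicate 3). Of these 2 rose on CD. The 5 endothelial genes, led by Pecam1, ran from 290.4 to 941 CPM and 2 fell. T cell genes (5, led by Cd4) ran from 4.56 to 18.9 CPM with 1 risen on CD, a share close to the 18.9% of all genes. B cell genes (5, led by Cd79b) ran from 3.44 to 29.2 CPM, plasma cell genes (3, led by Jchain) from 3.67 to 70.8 CPM and mesothelial genes (4, led by Upk3b) from 36.6 to 175 CPM, and none of these 12 genes was called on CD. Of the 16 spermatogenic genes, led by Sycp3 in the 11 libraries, 13 were at 0 in at least 1 of the 11 libraries. Of the 10 tested 8 fell on CD, beside 18.8% of all genes. The 16 summed to 25.5 and 332 CPM in WT CD replicates 1 and 2, and to 8.13, 9.56 and 10.8 CPM in HoipA-KO CD. Of the 9 epididymal genes, 8 of them at 0 in at least 1 library, 1 fell, and WT CD replicate 2 held 15378 CPM of that list. WT CD replicate 2 was far above replicate 1 in both lists, so their calls were not read as a result of genotype.

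Per kilobase of merged exon (GENCODE M21), which allows levels of different genes to be compared apart from differences in transcript use, Pcna was the most abundant of the 37 in every group. Its level was 20.4 CPM per kb in WT CD, 42.1 CPM per kb in WT HFD, 97.2 CPM per kb in HoipA-KO CD and 85.3 CPM per kb in HoipA-KO HFD (group means). In HoipA-KO CD Mcm6 followed with 16.4 CPM per kb and Mcm3 with 13.5, and the lowest were Chek1 with 0.640 and Cenpf with 0.721. Mki67 had 0.801 CPM per kb in WT CD, 5.60 CPM per kb in WT HFD, 8.97 CPM per kb in HoipA-KO CD and 8.85 CPM per kb in HoipA-KO HFD. Averaged over the 37 genes as log2(CPM + 1), the groups stood at 2.19 ± 0.04 (SD, n = 2) in WT CD, 3.76 ± 0.49 (SD, n = 3) in WT HFD, 4.47 ± 0.37 (SD, n = 3) in HoipA-KO CD and 4.51 ± 0.27 (SD, n = 3) in HoipA-KO HFD. Among the used libraries the spread was widest in WT HFD, and the HoipA-KO groups differed from each other by less than their SD. WT CD replicate 3, not part of these means, stood at 4.69, above the mean of either HoipA-KO group.

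Promoter letters and size of change can be set side by side, with no test. The 17 genes with CHR letters had a median log2 fold change of 3.17 on CD (range 0.76 to 4.28), and the 13 matched genes without had 2.29 (range 0.92 to 4.27). The 5 genes with E2F letters (Mcm3, Mcm5, Mcm6, Mcm7 and Cdk1) had 2.29. Mcm7, with CHR and E2F letters, had the smallest change of all 37, and Tk1, with neither, was among the largest. Rows of pseudogenes stayed low, with at most 2.29 CPM for Pcna-ps2, 0.675 for Ccnb2-ps and 0.081 for Ccnb1-ps. How reads shared with these copies were assigned was not tested.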

How the data were processed

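Gene-level estimated counts (expected counts, not whole numbers in 11.5% of values) were deposited by the authors as a merged Salmon table for 12 poly(A) RNA libraries of gonadal white adipose tissue. The submitters' processing notes name Trim Galore 0.6.7, STAR 2.7.10a, Salmon 1.5.2, DESeq2 1.38.1 and GRCm38. Deposited tables of the authors' DESeq2 comparisons hold fold changes and p-values and were not used. Counts were rounded, filtered with filterByExpr, scaled by TMM and fitted in edgeR 4.0.16 (R 4.3.3) as 1 model of 4 groups over 11 libraries, which left 18427 genes. WT CD replicate 3 was left out for its spermatogenic RNA. Quasi-likelihood tests were adjusted over all genes by Benjamini-Hochberg at 0.05, and standard errors are the log2 fold change divided by the root of F. The replicate numbers were checked for pairing: those of HoipA-KO CD and HFD correlated (0.15, 0.509 and 0.276), and those of other groups did not all do so. Group means were removed first, so that these correlations were not independent of each other. DESeq2 1.42.0 and 9 further settings were tried, and each library was left out in turn. Library totals of 30513500 to 60540260 limit detection to about 0.0532 to 0.0983 CPM, for counting error only. Gene IDs matched GENCODE M21 for 51948 of 55281 genes. Salmon assigns reads shared by similar sequences by estimation, the kit was stranded, and the strand setting used in counting was not given in the sources used here.

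The members, the lists and the decision on WT CD replicate 3 were chosen with earlier results of these data known. All 37 genes could be named. Values in every library were given for Mki67, Top2a, the 2 most abundant genes of each other role and genes that missed the call on CD. They were also given for Bub1, which met none of these criteria and had the largest fitted difference of the 37 on CD. Per further list the most abundant called gene, genes called the other way and a fixed set of G1 regulators were named, some with a fold change alone.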

Additional observations from a re-analysis of the deposited data

Results flagged for a closer look

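The test of the difference between the genotype effects on HFD and CD (interaction term, edgeR, Benjamini-Hochberg adjusted p under 0.05) passed for 20 of the 37 genes, each with a smaller knockout effect on HFD. On the log2 scale the term was -2.67 for Cdk1, -2.72 for Ccna2, -2.77 for Ccnb1, -2.29 for Ccnb2, -2.55 for Aurkb, -2.38 for Plk1 and -1.98 for Foxm1. It was -3.42 for Bub1, -2.43 for Birc5 and -1.78 for Cdc20. The spindle genes had -2.46 for Kif11, -2.24 for Kif20a, -2.65 for Kif23, -2.41 for Prc1, -2.67 for Tpx2 and -2.11 for Nusap1. Mki67 had -2.83 and Top2a -2.68, and of the replication genes Mcm5 had -2.05 and Tk1 -2.91. These terms rest on 2 WT CD libraries, and the number of calls fell to 0 without WT CD replicate 2 and in 6 other fits that left out 1 library.

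WT CD replicate 3, which was left out of the tests over 11 libraries, carried a signal above the other libraries: its spermatogenic genes summed to 9996.9 CPM, and 19 of the 37 cell cycle genes were higher in it than in each other library.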

How the results depend on the processing

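On CD, 31 to 36 of the 37 genes rose under every setting run except the fit of all 12 libraries, which gave 13 with a median log2 fold change of 0.76; leaving out 1 library gave 31 to 35 and medians of 2.47 (without HoipA-KO CD replicate 2) to 3.02 (without WT CD replicate 2). On HFD the count of 5 became 15 with DESeq2, 10 with library totals, 1 with no filter, 0 with all 12 libraries, 2 with only the 2 groups, 13 without the 2 libraries high in Crisp1 (chosen after seeing the data) and 0 to 11 without 1 library, with medians of 0.51 to 1.05. For diet in WT the count of 29 became 6 with all 12 libraries (median 0.03), 0 with only the 2 groups, 13 without the libraries high in Crisp1 and 15 to 30 without 1 library (medians 1.71 to 2.45). The interaction count of 20 became 1 with all 12 libraries (median -0.03), 0 without the libraries high in Crisp1 and 0 to 27 without 1 library (medians -2.36 to -1.68). For diet in HoipA-KO the count was 0 in each fit, with medians of -0.14 to 0.28 without 1 library. Library totals moved the median of all genes in that comparison from -0.015 to 0.09, and moved the share of higher among all calls from 35.5% to 53% for genotype on HFD and from 63.1% to 75.7% for diet in WT. The libraries high in Crisp1 include WT CD replicate 2. Fits without them, or without WT CD replicate 1 or 2, held only 1 WT CD library. No spread within WT CD entered the counts of those fits, and the other groups supplied it.

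The labels do not say that a replicate number marks a shared source. Group means were removed before correlating, so WT CD replicates 1 and 2 mirrored each other, at -0.375 and 0.375 with HoipA-KO HFD replicate 1. The pairs were therefore not independent, and their counts cannot decide whether the numbers mark pairs. Over all groups 6 of 15 pairs with the same number correlated above 0.1 (median 0.048, range -0.375 to 0.509), as did 8 of 30 with different numbers (median -0.002), and 5 of 11 libraries correlated best with their own number. Between the HoipA-KO groups all 3 pairs did; for these 6 libraries alone, with the replicate block (chosen after seeing the data), 0 of the 37 genes were called for diet, with a median of 0.05. With the replicate block 35, 12, 28 and 0 genes rose in the 4 comparisons (35, 5, 29 and 0 without it) and 14 interaction terms were called (20 without it).

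Among the genes called over 11 libraries, all reversals came from the fit of all 12 libraries, in which WT CD replicate 3 is the library added; estimates that were not called also changed sign in other fits. On CD they were Mcm7 -0.48, Ccnb2 -0.56, Aurka -1.32, Plk1 -0.45, Foxm1 -1.18, Bub1 -0.84, Cenpe -0.44, Cenpf -1.27, Kif20a -0.24 and Cdc20 -0.94. For diet in WT they were Ccnb1 -0.53, Ccnb2 -1.56, Aurka -1.97, Plk1 -1.54, Foxm1 -1.78, Bub1 -1.77, Bub1b -0.075, Cenpe -1.06, Cenpf -1.67, Birc5 -0.027, Cdca8 -0.47, Kif20a -0.99, Prc1 -0.39, Cdc20 -1.74 and Top2a -0.029. For the interaction they were Ccnb1 0.52, Ccnb2 1.64, Plk1 1.53, Foxm1 1.81, Bub1 1.68, Birc5 0.23, Kif20a 1.01, Prc1 0.43, Cdc20 1.76 and Top2a 0.12.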
